A study of Mus musculus with 21 samples.

Results

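A set of 10 immediate early response genes was followed in the livers of mice fed diets lacking a single amino acid. The 10 genes are Egr1, Fos, Jun, Junb, Dusp1, Btg2, Ier2, Zfp36, Id1 and Klf6, taken by symbol from the GENCODE M21 annotation of GRCm38, and they are 10 of the 46078 gene rows of the count matrix. All 10 passed the filter on low counts, which left 14370 genes. The list was drawn up with the behaviour of these genes in these livers already known, so their levels and fold changes are given as a description. Where the number of them called by a test across all genes is given, it stands beside the share of all genes called and is no independent evidence about the set.

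The question of the design was which liver transcripts respond when dietary cysteine is removed from animals that cannot synthesise it. Cystathionine gamma-lyase, encoded by Cth and called Cse in the study, makes cysteine from methionine-derived sulphur. The 21 poly(A) RNA libraries, titled as biological replicates, came from male mice at least 9 weeks old of a line on a 129/C57BL/6 background that carried either the Cse knockout (KO) or comparison alleles. The comparison animals are labelled WT, but the study's text describes them as Cse+/- heterozygotes, so WT below means the comparison genotype. All mice were calorie restricted, first on an amino-acid-defined control diet and then on 1 of 3 diets: the complete diet (CTR), the diet without cysteine (noCys) or the diet without tryptophan (noTrp), an essential amino acid whose removal serves as the comparison depletion. The study's text gives 3 days on the restricted control diet and tissue collection 2 days after the switch. In the depleted diets the remaining amino acids were raised in proportion. The groups held 3 WT CTR, 4 KO CTR, 4 WT noCys, 3 KO noCys, 2 WT noTrp and 5 KO noTrp livers. The sources used here do not describe the deletion as limited to liver, so effects arising in liver and in other tissues cannot be told apart.

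Immediate early genes are switched on by signals acting on transcription factors already present in the cell, such as serum response factor with its ETS partners downstream of ERK and CREB downstream of cAMP, and need no new protein synthesis. Many encode transcription factors, others encode proteins that shut the signal off again, and the messenger RNAs are short-lived, so that their levels follow recent stimulation. In liver they are known from regeneration after partial hepatectomy, from fasting hormones and from the handling of tissue at collection.

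The genes were compact. Their annotated span had a median of 3710.5 bases, against 24152 bases for the 12341 protein-coding genes tested, and Jun, Ier2, Zfp36 and Id1 are single exon blocks. Fos lies on chromosome 12 (85473890 to 85477273, plus strand), Jun on chromosome 4 (95049034 to 95052222, minus strand), Junb on chromosome 8 (84974484 to 84978718, minus strand) and Dusp1 on chromosome 17 (26505590 to 26562128, minus strand). Jun, Junb, Dusp1 and Zfp36 overlap other annotated genes, and as the strand setting of the counting is not given in the sources used here, reads from Jun and its antisense transcript Junos, or from Junb and Prdx2, cannot be told apart. The span annotated for Dusp1 is the longest of the 10, 56539 bases, and overlaps Ergic1 on the opposite strand and 3 further genes.

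The promoters of 7 of the 10 genes could be read from RefSeq (GRCm38.p6; 250 bases before the transcription start to 50 after). A set of 4 is shown, the ones that hold at least the short form of the cAMP response element, through which CREB is known to act; of these, Fos and Junb also hold the letters of the TATA box, a core promoter element. Capitals mark TGACG, the short form of the cAMP response element, its full form TGACGTCA, the TATA box TATAAA and the EGR site GCGNGGGCG, all searched on both strands.
Fos, chr12:85473640-85473939, plus strand: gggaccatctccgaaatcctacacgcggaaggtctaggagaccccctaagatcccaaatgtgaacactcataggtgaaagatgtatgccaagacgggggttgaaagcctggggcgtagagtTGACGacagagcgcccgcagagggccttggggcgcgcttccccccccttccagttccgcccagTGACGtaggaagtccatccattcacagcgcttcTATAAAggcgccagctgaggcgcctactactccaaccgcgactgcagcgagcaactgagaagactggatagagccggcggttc
Junb, chr8:84978699-84978998, minus strand: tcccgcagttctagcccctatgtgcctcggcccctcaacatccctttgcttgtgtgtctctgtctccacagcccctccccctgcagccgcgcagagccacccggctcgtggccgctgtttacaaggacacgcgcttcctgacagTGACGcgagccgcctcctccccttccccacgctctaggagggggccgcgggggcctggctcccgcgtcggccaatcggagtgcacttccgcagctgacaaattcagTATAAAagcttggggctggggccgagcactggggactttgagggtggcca
Dusp1, chr17:26508423-26508722, minus strand: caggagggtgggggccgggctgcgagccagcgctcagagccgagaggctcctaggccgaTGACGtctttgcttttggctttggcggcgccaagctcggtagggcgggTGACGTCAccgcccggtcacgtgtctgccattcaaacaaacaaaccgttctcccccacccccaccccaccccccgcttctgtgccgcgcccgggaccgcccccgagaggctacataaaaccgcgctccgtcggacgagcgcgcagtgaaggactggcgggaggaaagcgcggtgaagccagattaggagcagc
Btg2, chr1:134079106-134079405, minus strand: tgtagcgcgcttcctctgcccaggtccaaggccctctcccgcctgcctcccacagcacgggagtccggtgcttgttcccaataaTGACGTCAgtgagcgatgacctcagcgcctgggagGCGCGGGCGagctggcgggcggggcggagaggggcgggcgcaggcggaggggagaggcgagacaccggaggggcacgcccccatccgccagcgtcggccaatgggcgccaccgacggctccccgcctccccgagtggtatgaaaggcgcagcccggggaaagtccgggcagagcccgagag

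The full cAMP response element TGACGTCA stood in the Btg2 promoter (bases -166 to -159 from the start) and in the Dusp1 promoter (-143 to -136), that is in 2 of the 7, against 1.88% of 27025 mouse promoters and 3.17% of the 10186 promoters of genes tested here. The short form TGACG, which the full element also contains, was in 4 of the 7 (Btg2, Dusp1, Fos and Junb) against 31.6% of the promoters of tested genes. Fos (-33 to -28) and Junb (bases 1 to 6) held TATAAA, which 7.38% of the promoters of tested genes hold. The Zfp36 promoter held the serum response element core known as the CArG box (-58 to -49), found in 1.33%. The AP-1 site TGANTCA was in none of the 7 and in 5.19% of the promoters of tested genes. The EGR site stood in Btg2 and Zfp36 (10.6% of the promoters of tested genes) and the GC box GGGCGG in 6 of the 7 (62.5%), Junb being the exception. Such matches describe letters in a window and are not evidence of binding.

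The 3′ untranslated regions were searched for the AU-rich heptamer TATTTAT. This is an element that Zfp36 protein, itself encoded in the set, is known to bind when it marks messages for decay. Taking the longest 3′ untranslated region of each gene in GENCODE M21, the heptamer was present in 6 of the 10 genes (60.0%) against 29.6% of 12291 tested protein-coding genes, and 30.8% of the 7497 whose untranslated region lies within the length range of the set. Zfp36 and Dusp1 had 3 copies each, Fos and Klf6 had 2, Jun and Btg2 had 1, and Egr1, Junb, Ier2 and Id1 had 0. The windows below, with the heptamer in capitals, show the paired copies in Zfp36 and 1 copy in each of Fos, Btg2 and Dusp1, whose highest and lowest livers lay furthest apart in the set (by 65.3, 16.2 and 12.5 times in CPM). Zfp36 and Klf6, with 3 and 2 copies, had the narrowest ranges (2.14 and 1.71 times). Id1 and Egr1, with 0 copies, ranged 10.9 and 8.91 times. A relation of copies to range was not tested.
Zfp36, bases 570 to 596 of the 3′ untranslated region: cccttTATTTATgacgacttTATTTAT
Fos, bases 646 to 672: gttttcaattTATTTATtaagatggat
Btg2, bases 93 to 119: aatgaagagcTATTTATacatgttttt
Dusp1, bases 94 to 120: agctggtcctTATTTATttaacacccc

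Sequencing depth ran from 8889951 to 27230852 counts per library, and mitochondrial transcripts took 3.41% to 7.68%. Cth stood at 107.8 to 451.7 CPM (the count scaled to the library total, with TMM factors between libraries) in the WT livers and at 6.34 to 15.0 CPM in the KO livers, with no overlap between genotypes. The third WT CTR library stood apart with 8.56% of its counts in rRNA-related genes, against at most 0.450% in the others. Hepatocyte markers were abundant everywhere, at summed levels of 59390 to 106700 CPM outside KO noCys and 40180 to 67380 CPM in KO noCys. Neutrophil markers summed to at most 3.97 CPM, with Ly6g at 0 in 5 of the 6 groups. The 9 markers of Kupffer cells and leukocytes, all detected in each group, summed to 172.5 to 257.9 CPM in WT CTR, 206.8 to 323.9 in WT noCys, 339.3 to 374.8 in WT noTrp, 151.8 to 297.4 in KO CTR, 155.7 to 201.9 in KO noCys and 251.7 to 443.1 in KO noTrp. In bulk tissue, fewer cells of a type and less RNA per cell cannot be told apart. The p-values given for other genes measure the spread between these livers, whose titles name them biological replicates.

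Per kilobase of exon, Zfp36 was the most abundant of the 10 genes and Fos the scarcest. On a scale of CPM divided by exon length in kilobases, Zfp36 had a median level of 50.7 over the 21 livers, Ier2 25.0, Junb 17.9, Dusp1 15.8, Btg2 7.58, Jun 6.49, Id1 5.63, Klf6 2.08, Egr1 1.95 and Fos 0.402. The range over livers went the other way for the extremes. The highest liver exceeded the lowest 65.3-fold for Fos, 16.2-fold for Btg2, 12.5-fold for Dusp1, 11.7-fold for Jun, 10.9-fold for Id1 and 8.91-fold for Egr1, but 4.94-fold for Junb, 2.83-fold for Ier2, 2.14-fold for Zfp36 and 1.71-fold for Klf6. Fos rested on 3 to 218 reads per library, so its lowest values carry large counting error.

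**Figure D1:**
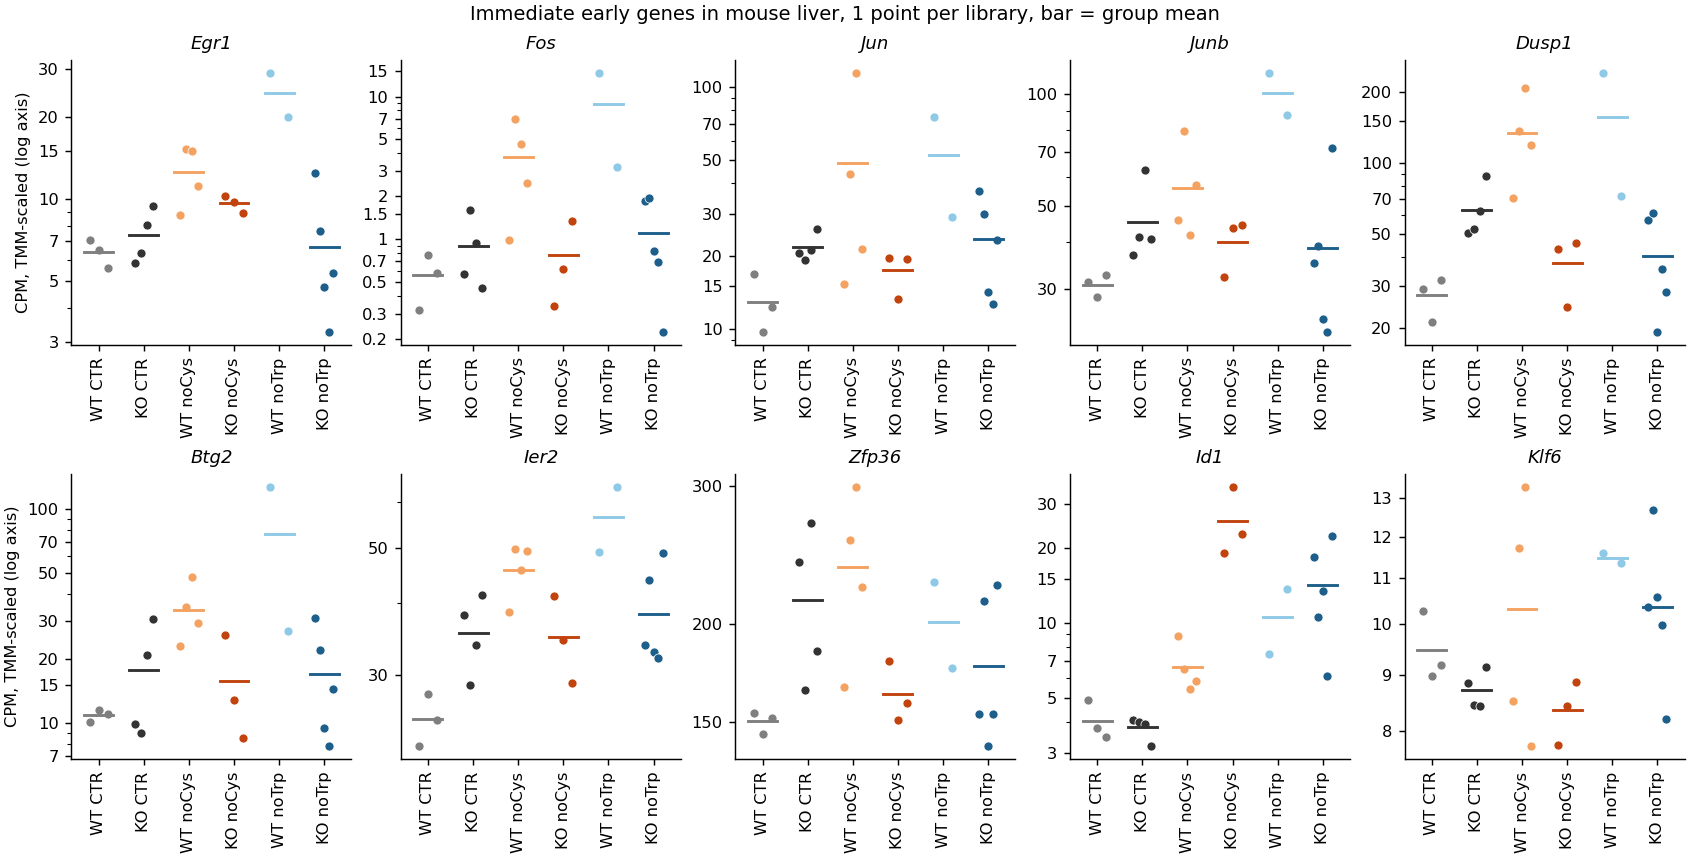
Level of each of the 10 genes in every liver, as TMM-scaled CPM on a log axis (each panel has its own range), with 1 point per library and a bar at the group mean. The WT noTrp and WT noCys livers sit above the WT CTR livers in most panels, the KO groups largely overlap one another, and Id1 is high in KO noCys, at 18.9 to 34.9 CPM, overlapping KO noTrp, at 6.13 to 22.2 CPM.

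The AP-1 subunits Fos, Jun and Junb, which pair to form a transcription factor at growth and stress genes, were highest in WT livers without an amino acid. Fos stood at 0.318, 0.773 and 0.581 CPM in the WT CTR livers, at 0.992, 6.98, 4.65 and 2.47 CPM in WT noCys, and at 14.6 and 3.21 CPM in WT noTrp. In the KO livers Fos stood at 0.571, 1.61, 0.945 and 0.457 CPM on CTR, at 0.338, 0.620 and 1.35 CPM on noCys, and at 1.85, 1.95, 0.823, 0.692 and 0.224 CPM on noTrp. Every WT liver on a depleted diet thus lay above every WT CTR liver, whereas the KO diet groups overlapped throughout. The fitted log2 fold change of Fos against the CTR group of the same genotype was 2.64 ± 0.79 (SE) for WT noCys and 3.94 ± 0.83 for WT noTrp, but -0.26 ± 0.75 for KO noCys and 0.21 ± 0.64 for KO noTrp.

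Jun showed the same order with a wide spread inside the WT noCys group. Its levels were 16.9, 9.74 and 12.3 CPM in WT CTR, 15.4, 43.8, 114.1 and 21.5 CPM in WT noCys, and 75.2 and 29.1 CPM in WT noTrp. In KO livers Jun lay between 19.4 and 25.9 CPM on CTR, between 13.3 and 19.7 CPM on noCys and between 12.8 and 37.3 CPM on noTrp. The first WT noCys liver lay inside the WT CTR range, and the third, at 114.1 CPM, was the highest of all 21. The fitted log2 differences from CTR were 1.90 ± 0.54 (WT noCys), 2.01 ± 0.61 (WT noTrp), -0.32 ± 0.51 (KO noCys) and 0.12 ± 0.44 (KO noTrp).

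Junb differed most between the genotypes on the noTrp diet. It stood at 31.4, 28.5 and 32.6 CPM in WT CTR, at 45.9, 79.7, 41.8 and 57.0 CPM in WT noCys, and at 113.7 and 87.7 CPM in WT noTrp. The KO noTrp livers held 35.2, 39.0, 24.9, 23.0 and 71.5 CPM, all below both WT noTrp livers, although the fifth was within the WT noCys range. The log2 difference of WT noTrp from WT CTR was 1.71 ± 0.35 and that of KO noTrp from WT noTrp was -1.38 ± 0.31.

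Egr1, the zinc finger factor that ERK signalling induces through serum response factor, separated the WT noTrp livers from all others. Its levels were 7.10, 6.49 and 5.58 CPM in WT CTR, 8.75, 15.3, 15.0 and 11.2 CPM in WT noCys, and 29.0 and 20.1 CPM in WT noTrp. KO livers held 5.85, 6.35, 8.03 and 9.41 CPM on CTR, 10.3, 9.77 and 8.93 CPM on noCys, and 12.4, 7.63, 4.76, 3.26 and 5.37 CPM on noTrp. The WT noTrp livers did not overlap any other group, and the log2 difference between KO noTrp and WT noTrp was -1.85 ± 0.31. Klf6, a Krüppel-like factor also counted among early response genes, had no such pattern. It ranged from 7.76 to 13.3 CPM over all 21 livers, and its differences from CTR within a genotype reached at most 0.28 ± 0.19 on the log2 scale, in WT noTrp. Between KO noCys and KO noTrp its log2 difference was -0.30 ± 0.16, which was not called.

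The genes that damp the response were also highest in WT livers on a depleted diet. Dusp1, a phosphatase that inactivates MAP kinases, stood at 29.2, 21.3 and 31.8 CPM in WT CTR, at 71.2, 136.8, 206.7 and 118.6 CPM in WT noCys, and at 240.3 and 72.5 CPM in WT noTrp. In KO livers it stood at 50.6, 52.5, 62.3 and 88.0 CPM on CTR, at 43.2, 24.4 and 45.8 CPM on noCys, and at 57.0, 61.1, 19.2, 35.6 and 28.4 CPM on noTrp. Dusp1 was thus higher in every KO than in every WT liver on the control diet, and the direction of the noCys difference was opposite in the 2 genotypes. Its log2 change on noCys was 2.28 ± 0.44 in WT and -0.75 ± 0.41 in KO, a difference of -3.03 ± 0.60, the largest noCys contrast in the set.

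Btg2, an antiproliferative cofactor of messenger RNA deadenylation, had 10.1, 11.5 and 11.04 CPM in WT CTR, 22.9, 34.8, 47.9 and 29.5 CPM in WT noCys, and 126.5 and 26.8 CPM in WT noTrp. All 6 WT livers on a depleted diet lay above the WT CTR livers, but the 2 WT noTrp values differed 4.72-fold from each other. Among KO livers Btg2 ranged from 8.99 to 30.7 CPM on CTR, from 8.48 to 25.8 CPM on noCys and from 7.81 to 30.9 CPM on noTrp, so the 3 KO groups shared 1 range.

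Ier2, a small nuclear protein of the early response, had a narrower range over the 21 livers (2.83 times in CPM) than Fos, Btg2 or Dusp1. It stood at 22.6, 27.8 and 25.1 CPM in WT CTR, at 38.6, 49.7, 45.7 and 49.3 CPM in WT noCys, and at 49.2 and 63.8 CPM in WT noTrp. KO livers ranged from 28.8 to 41.4 CPM on CTR, from 29.1 to 41.3 CPM on noCys and from 32.1 to 48.9 CPM on noTrp, all above the highest WT CTR liver. The log2 difference from WT CTR was 0.86 ± 0.17 for WT noCys and 1.16 ± 0.19 for WT noTrp.

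Zfp36, which encodes the decay factor tristetraprolin, was the only gene highest on average in WT noCys. It stood at 154.0, 145.0 and 151.8 CPM in WT CTR and at 166.4, 256.3, 299.2 and 223.4 CPM in WT noCys, against 179.5, 150.8 and 158.8 CPM in KO noCys. The WT noTrp livers, at 226.3 and 175.8 CPM, lay inside the WT noCys range. The KO CTR livers ranged from 164.6 to 269.2 CPM, overlapping both noCys groups, and the KO noTrp livers from 139.8 to 224.4 CPM. The log2 change on noCys was 0.65 ± 0.20 in WT and -0.40 ± 0.20 in KO.

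Id1, a dominant-negative partner of basic helix-loop-helix factors and a direct target of BMP signalling through SMAD proteins, went its own way. It stood at 4.87, 3.79 and 3.49 CPM in WT CTR, at 8.87, 6.53, 5.41 and 5.85 CPM in WT noCys, and at 7.51 and 13.6 CPM in WT noTrp. In the KO livers it stood at 4.07, 3.997, 3.94 and 3.20 CPM on CTR, at 18.9, 34.9 and 22.7 CPM on noCys, and at 18.3, 10.6, 13.4, 6.13 and 22.2 CPM on noTrp. The KO noCys and KO CTR livers did not overlap, and neither did the KO noTrp and KO CTR livers. The log2 difference from CTR was 2.75 ± 0.32 in KO noCys and 1.89 ± 0.30 in KO noTrp, against 0.73 ± 0.36 in WT noCys and 1.38 ± 0.40 in WT noTrp.

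**Figure D2:**
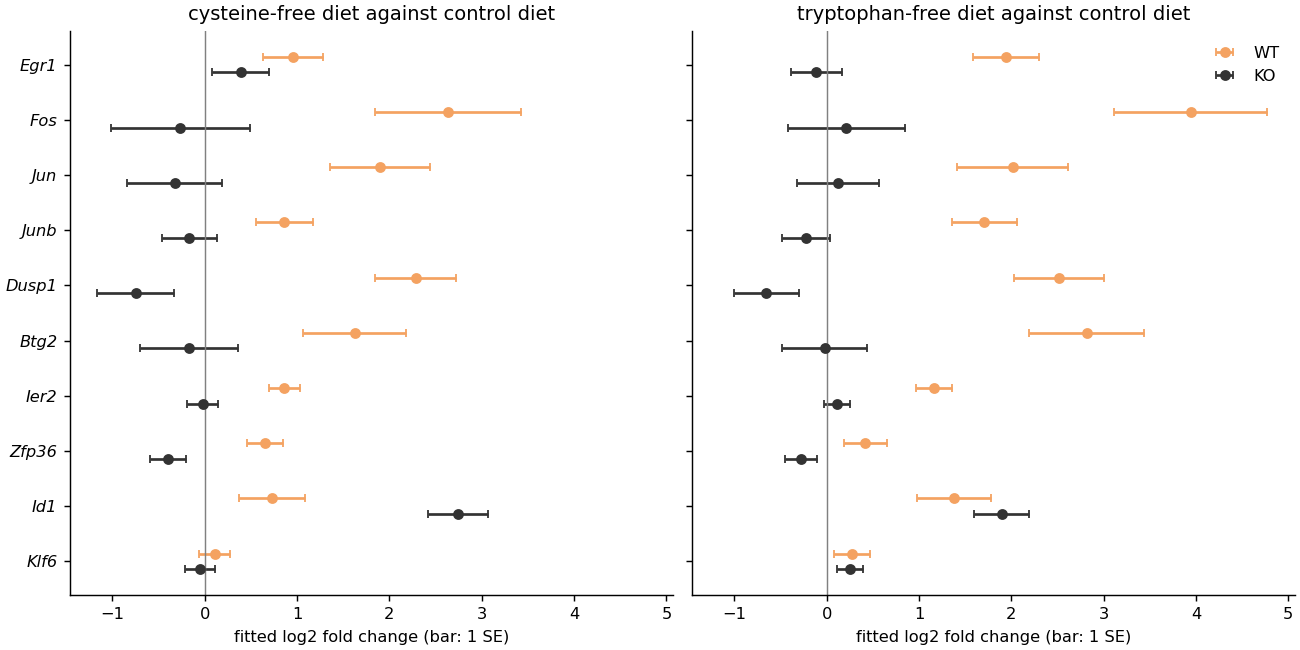
Fitted log2 fold change of each gene on the noCys and noTrp diets against the CTR group of the same genotype, with standard errors as bars. In WT all 10 genes lie above 0 on both diets, from 0.11 (Klf6) to 3.94 (Fos), whereas in KO the values other than Id1 lie between -0.75 and 0.39.

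Over the set, all 10 WT differences from CTR were above 0 on both diets, while in KO 2 were above 0 and 8 below on noCys, and 5 and 5 on noTrp. On noCys the median log2 fold change against WT CTR was 0.91, against -0.01 for all tested genes. In this comparison 2 of the 10 genes (Dusp1 and Ier2) were called higher at an adjusted p of 0.05 by edgeR's quasi-likelihood test with Benjamini-Hochberg adjustment over all 14370 genes, where 0.39% of all genes were, and 8 were higher in every WT noCys than in every WT CTR liver, where 9.15% of all genes were. The 2 calls became 0 when any of WT CTR replicates 1 and 3 or WT noCys replicates 2, 3 and 4 was left out, and 1 without WT CTR replicate 2. On noTrp the median was 1.82, with 6 genes called higher (1.7% of all genes) and all 10 higher in every WT noTrp liver (15.3% of all genes). Without the first WT noTrp liver, the highest of 21 for Btg2, Dusp1, Egr1, Fos and Junb, the noTrp median was 1.38 and 1 gene was called. With all livers, limma-voom called 1 of the 10 higher on noTrp and DESeq2 8, and on noCys 2 and 4. Both WT comparisons share the 3 WT CTR livers; without the third of them, the library rich in rRNA-related counts, the medians were 0.88 and 1.80. The Kupffer and leukocyte marker sums were higher in WT noTrp than in WT CTR. Stellate cell and fibroblast sums were lower in WT noTrp (194.1 to 244.8 CPM) than in WT CTR (304.6 to 339.9 CPM). Neutrophil sums were higher in WT noCys (2.22 to 3.97 CPM) than in WT CTR (1.55 to 2.01 CPM). Mitochondrial transcripts took 3.70% and 3.89% of the counts in WT noTrp against 7.51%, 6.51% and 6.62% in WT CTR, with no overlap, and 3.41% to 4.79% in KO noTrp against 4.50% to 7.29% in KO CTR. The part of the markers and of this share in these differences was not tested.

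In KO livers the median was -0.17 on noCys and 0.05 on noTrp. Id1 was the 1 gene called higher on noCys, where 10.6% of all genes were called higher and 9.59% lower, and again the 1 gene called higher on noTrp, where 0.779% of all genes were. Without Id1 the medians were -0.17 and -0.02. The same KO CTR livers serve both comparisons. Hepatocyte markers summed to 40180 to 67380 CPM in KO noCys against 74020 to 82590 CPM in KO CTR. For erythroid markers the sums were 128.2 to 157.5 against 178.9 to 337.8 CPM. Genes that track RNA quality, rRNA-related and mitochondrial, summed to 1375 to 1740 against 2312 to 4530 CPM. The sums of the other cell types overlapped, and the part of these lists in the differences was not tested. Between the KO noCys and KO noTrp livers, Id1 was called higher with a log2 difference of 0.85 ± 0.28 and no gene of the set was called lower, where 7.17% of all genes were called higher and 6.75% lower. The adjusted p for Id1 lay at the threshold, and the count of genes called higher was 0 without KO noCys replicate 3 or 4 or KO noTrp replicate 2, 3 or 4, and 2 without KO noTrp replicate 1. It was also 0 with DESeq2-style size factors and when only the 2 compared groups were fitted. Kupffer cell and leukocyte markers summed to 155.7 to 201.9 CPM in KO noCys against 251.7 to 443.1 CPM in KO noTrp. For endothelium the sums were 98.1 to 108.7 against 127.0 to 171.9 CPM, and for bile duct and gut 6.17 to 6.77 against 6.79 to 11.7 CPM. Other cell type sums overlapped, and the part of these lists in the Id1 difference was not tested.

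On the control diet no gene of the set was called between the genotypes. The median log2 difference, KO CTR against WT CTR, was 0.54, led by Dusp1 at 1.21 ± 0.43, and 5 of the 10 genes were higher in every KO CTR than in every WT CTR liver, where 5.39% of all genes were. By edgeR 0 of the 10 passed, against 0.32% of all genes called in either direction, and 3 had an unadjusted p under 0.05; DESeq2 and limma-voom called 0. The WT CTR group, which had the lowest mean for 8 of the 10 genes, is also the baseline of both WT diet comparisons.

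Between genotypes on the depleted diets, 4 of the 10 genes were called lower in KO livers on noCys and 1 on noTrp. On noCys the median log2 difference, KO against WT, was -0.50. Fos (-2.16 ± 0.71), Dusp1 (-1.82 ± 0.43), Jun (-1.47 ± 0.52) and Zfp36 (-0.54 ± 0.20) were called lower and Id1 (1.94 ± 0.31) was called higher, where 13.4% of all genes were called lower and 14.8% higher. The livers of these groups overlapped for Fos, Jun and Zfp36 but not for Dusp1 and Id1. The adjusted p for Zfp36 lay at the threshold. The 4 lower calls became 1 without KO noCys replicate 3 or WT noCys replicate 2 or 3, and 2 without KO noCys replicate 1 or 4, while Id1 was called throughout. The KO noCys livers also lay below the WT noCys livers without overlap in the summed markers of hepatocytes (40180 to 67380 against 93200 to 106700 CPM), of Kupffer cells and leukocytes (155.7 to 201.9 against 206.8 to 323.9 CPM), of endothelium (98.1 to 108.7 against 109.9 to 163.0 CPM), of bile duct and gut (6.17 to 6.77 against 10.2 to 20.1 CPM) and of erythroid cells (128.2 to 157.5 against 183.2 to 374.3 CPM). The sum of 5 rRNA-related and mitochondrial genes that track RNA quality was lower as well (1375 to 1740 against 1879 to 2728 CPM), while the neutrophil and stellate cell sums overlapped. The part of these lists in the differences of the set was not tested. On noTrp the median was -1.26, with Egr1 called lower (0.125% of all genes were) and 5 genes lower in every KO than in every WT liver (4.97% of all genes). That median moved to -0.69 without the first WT noTrp liver, when no gene of the set was called, and to -1.61 without the second, when 5 were. The count was also 4, 3 and 2 without KO noTrp replicates 1, 2 and 5.

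The difference between the genotypes in the diet effect itself had a median of -1.04 for noCys. It was called lower for Dusp1 (-3.03 ± 0.60), Zfp36 (-1.05 ± 0.28) and Ier2 (-0.88 ± 0.23) and higher for Id1 (2.02 ± 0.48), where 3.88% of all genes were called lower and 3.56% higher. Leaving out KO noCys replicate 3 or WT CTR replicate 1 ended the call on Id1, and the 3 lower calls became 1 without any of KO noCys replicates 3 and 4, WT CTR replicates 1 and 3 and WT noCys replicate 2. For noTrp the median was -1.91 and ran from -3.73 ± 1.06 for Fos to 0.52 ± 0.50 for Id1, but edgeR called none of the 10 and none of the 14370 genes, with 8 and 821 at an unadjusted p under 0.05. DESeq2 called 3 of the 10 and 14 of all genes, and limma-voom called 0 of both. The median noTrp difference was -1.27 without the first WT noTrp liver. Without the second, edgeR called 3 of the 10 lower and 67 genes in all, and without KO noTrp replicate 1 or 5 it called 1 of the 10.

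Ranked by mean level, WT noTrp was the highest of the 6 groups for 8 of the 10 genes. Neighbouring groups in these orders mostly overlapped, 4 of 50 such pairs being apart. These were WT noTrp above WT noCys for Egr1 and for Junb, KO noCys above WT CTR for Ier2, and WT noCys above WT CTR for Id1.

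**Figure D3:**
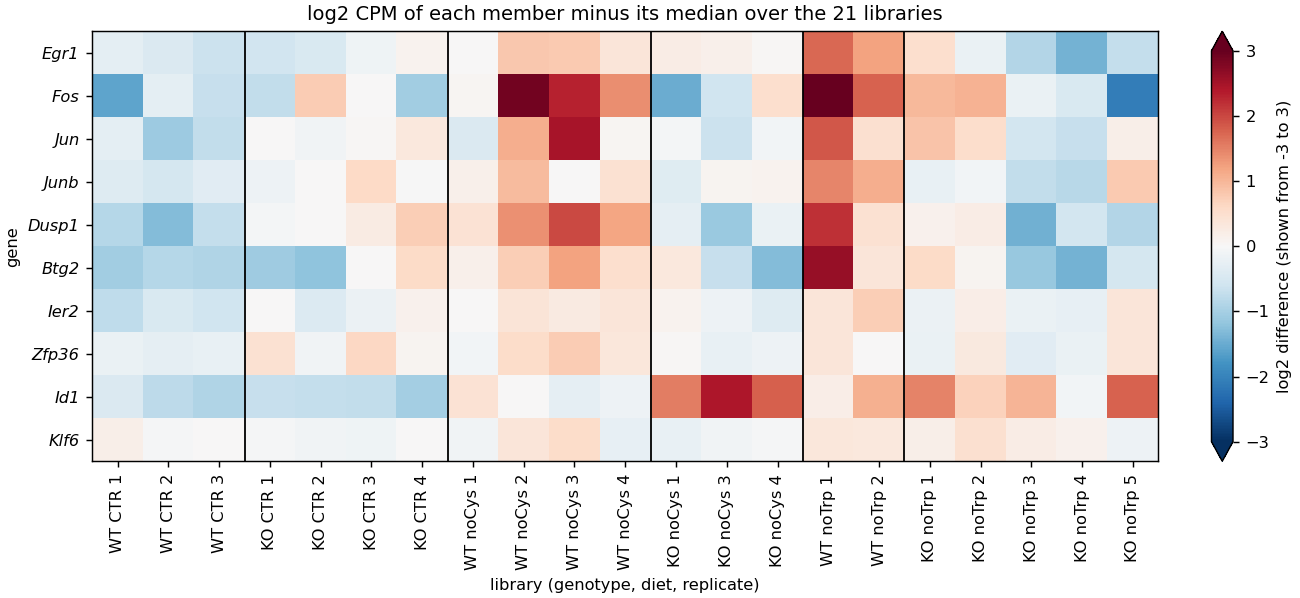
Heat map of the 10 genes (rows) over the 21 livers (columns, grouped by genotype and diet), each row as log2 CPM minus its median over the livers, with colours limited to differences of 3. WT noTrp replicate 1 and WT noCys replicates 2 and 3 are high over most rows. The row of Id1 is high in the KO noCys livers and in the KO noTrp livers other than replicate 4. The WT noTrp livers and WT noCys replicate 1 also lie above the median of Id1.

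Livers of the same group also differed in the set as a whole. After centring each gene within its group, 33 of the 36 pairs among the 9 genes other than Id1 were positively correlated over the 21 livers, with a median Pearson r of 0.381 and a range of -0.318 to 0.806. Jun with Dusp1 (0.806) and Egr1 with Btg2 (0.804) were the closest pairs. Of the 9 pairs with Id1, 3 were positive, with a median of -0.101. Against the mean of the other 9 genes, Jun reached 0.823 and Egr1 0.801, Ier2 0.214 and Id1 -0.096. The genes outside the set that followed its mean most closely were Ralgapb (0.792), Anapc16 (0.783), Jund (0.781), Ube2m (0.774), Eif1 (0.771) and Smc3 (0.747); of these, Jund is itself an AP-1 subunit. These correlations describe shared variation between libraries, which differ in depth and composition too.

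Further stimulus-responsive genes were examined on a list of 55, none of them in the set, of which 49 were tested. On noCys in WT, 3 rose and 0 fell, where 0.39% of all genes were called higher. Sik1, a cAMP-induced kinase, rose by 1.92 ± 0.39 on the log2 scale (adjusted p = 0.0307), from 12.4, 17.8 and 23.0 CPM to 50.1, 75.0, 57.8 and 84.2 CPM. The small MAF factor Maff rose by 1.85 ± 0.41 (adjusted p = 0.0411), and Zfp36l1, a paralogue of Zfp36, by 0.75 ± 0.16 (adjusted p = 0.0362). For each of the 3 genes every WT noCys liver lay above every WT CTR liver. The median log2 fold change of the 49 was 0.39. Leaving out any 1 of the 7 livers left 0 calls.

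On noTrp in WT, 8 of the 49 rose (1.7% of all genes did) and 0 fell, with a median of 0.79. The orphan nuclear receptor Nr4a1 rose by 4.99 ± 0.81 (adjusted p = 0.00405), but its 2 livers stood at 100.7 and 7.47 CPM against 3.60, 1.16 and 0.349 CPM in WT CTR. Sik1 rose by 2.64 ± 0.44 (adjusted p = 0.00442) and Maff by 2.56 ± 0.45 (adjusted p = 0.00606). Socs3, the feedback inhibitor of cytokine receptors, rose by 2.37 ± 0.33 (adjusted p = 0.00233), to 60.2 and 26.9 CPM from 11.3, 6.42 and 7.78 CPM. Fosl2, Zfp36l2, Ppp1r15a and Zfp36l1 made up the rest. Without the first WT noTrp liver 2 of the 49 were called higher, without the second 18 were, and without WT CTR replicate 2 the count was 5.

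**Figure D4:**
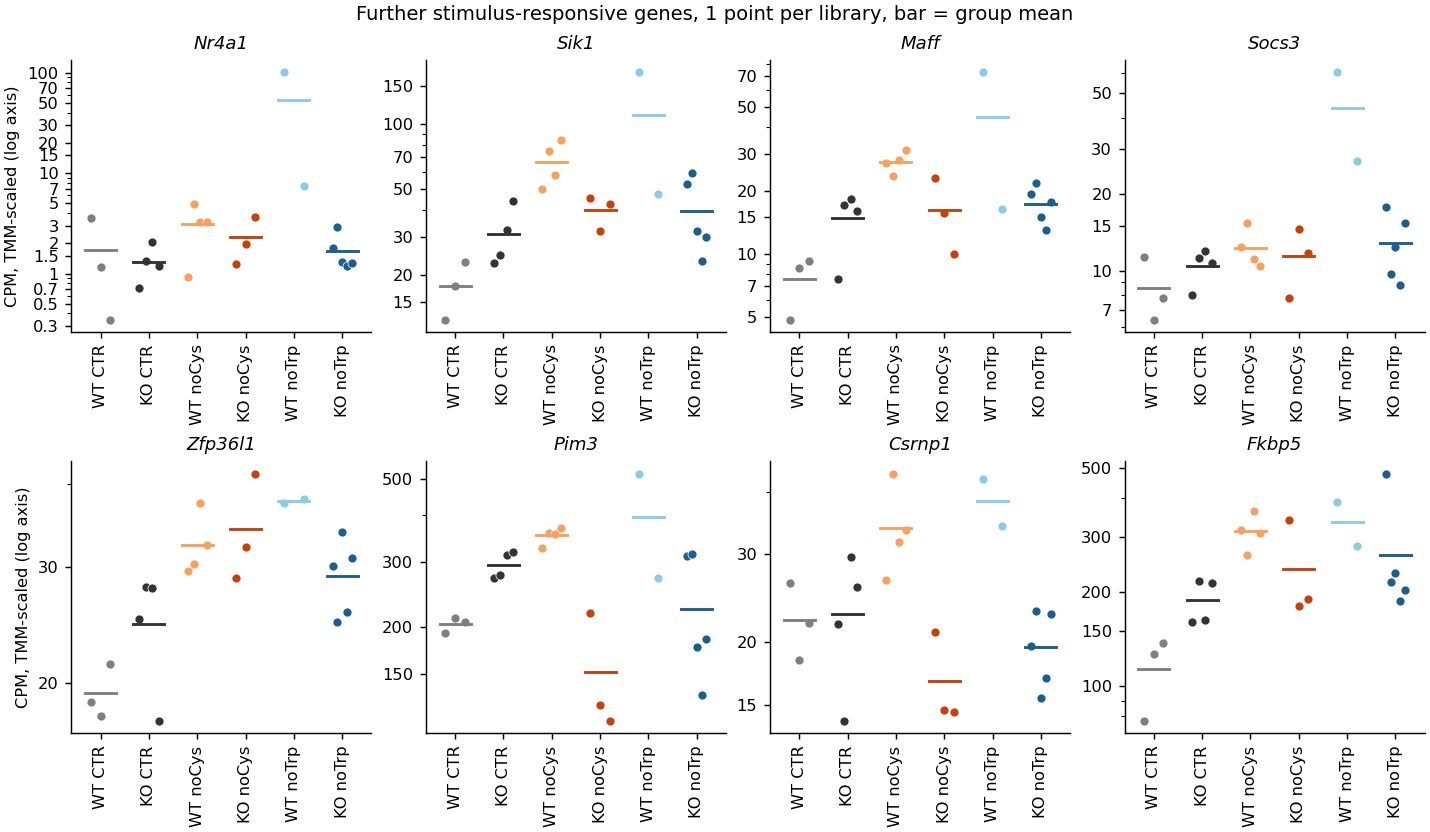
Levels of 7 further early response genes and of the glucocorticoid target Fkbp5 in every liver, as TMM-scaled CPM on log axes with a bar at the group mean. For Nr4a1 the first WT noTrp liver, at 100.7 CPM, stands far above the second, at 7.47 CPM, and Pim3 and Csrnp1 are lower in every KO noCys than in every WT noCys liver.

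In KO livers on noCys the same list gave 3 calls higher and 2 lower of 49, where 10.6% and 9.59% of all genes were. The 3 that rose were the stress factor Atf3 (1.85 ± 0.65, adjusted p = 0.0491), the kinase Sgk1 (1.30 ± 0.43, adjusted p = 0.0393) and Zfp36l1 (0.47 ± 0.15, adjusted p = 0.0321). The kinase Pim3 (-0.96 ± 0.27, adjusted p = 0.0161) and the NF-kappaB inhibitor Nfkbia (-0.66 ± 0.22, adjusted p = 0.0371) fell. Atf3 stood at 0.677, 11.4 and 4.63 CPM in these 3 livers, so 1 of them lay inside the control range. Without KO noCys replicate 3 or 4 0 were called in either direction, and without KO CTR replicate 1, 3 or 4 the counts were 1 higher and 1 lower. On noTrp edgeR called 0 of the 49, with 2 at an unadjusted p under 0.05, and DESeq2 and limma-voom also called 0. Of all 14370 genes, edgeR called 112 higher and 157 lower in that comparison. Between KO and WT on the control diet edgeR called 0, against 0.32% of all genes, with 4 at an unadjusted p under 0.05, and the other tools 0.

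Between genotypes on noCys, 14 of the 49 were lower in KO and 0 higher, where 13.4% and 14.8% of all genes were. Pim3 was lower by a log2 difference of -1.22 ± 0.27 (adjusted p = 0.00233), Csrnp1, an AXIN1-responsive nuclear protein, by -1.03 ± 0.23 (adjusted p = 0.00217) and Btg1, a relative of Btg2, by -0.88 ± 0.25 (adjusted p = 0.0136). Pim3 stood at 218.3, 124.0 and 112.4 CPM in KO noCys against 327.1 to 369.5 CPM in WT noCys. The count was 6 without KO noCys replicate 3 and 8 without replicate 4; scaled by library totals alone it was 7. On noTrp Nr4a1 (-5.00 ± 0.65, adjusted p = 0.000937) and Socs3 (-1.75 ± 0.28, adjusted p = 0.0061) were lower in KO, where 0.125% of all genes were, and 0 were called without the first WT noTrp liver. Between KO noCys and KO noTrp, 2 of the 49 (Atf3 and Klf10) were called higher on noCys and 1 (Mcl1) lower, where 7.17% and 6.75% of all genes were. The first KO noCys liver, at 0.677 CPM for Atf3, lay below every KO noTrp liver (0.706 to 2.66 CPM).

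Genes of the Id and BMP pathway, the setting in which Id1 is usually studied, were taken from a list of 11, all tested. In KO noCys against KO CTR, where 10.6% of all genes were called higher, 6 rose and 0 fell: Hamp, the iron hormone hepcidin (1.92 ± 0.54, adjusted p = 0.0172), the inhibitory SMADs Smad6 (1.30 ± 0.26, adjusted p = 0.00159) and Smad7 (0.98 ± 0.28, adjusted p = 0.0178), Id2 (1.22 ± 0.39, adjusted p = 0.0335), Id3 (1.11 ± 0.32, adjusted p = 0.0174) and the helix-loop-helix factor Atoh8 (0.97 ± 0.21, adjusted p = 0.00288). Hamp stood at 1226, 1707 and 1720 CPM in KO noCys against 897.1, 107.3, 290.0 and 347.4 CPM in KO CTR. Id2 stood at 45.6, 110.5 and 102.5 CPM against 56.3, 50.2, 24.6 and 16.8 CPM, so these groups overlapped. The lowest KO noCys liver also lay below the highest KO CTR liver for Smad6 (4.96 against 5.12 CPM) and Smad7 (12.4 against 12.6 CPM), while Hamp, Id3 and Atoh8 did not overlap. In all 6 genes the first KO noCys liver was the lowest of the 3, and without replicate 3 the count was 2, without replicate 4 it was 3.

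On noTrp in KO, Id3 (1.31 ± 0.29, adjusted p = 0.0212) and Smad6 (1.15 ± 0.24, adjusted p = 0.0146) rose, where 0.779% of all genes did, and leaving out 1 liver at a time gave 0 to 3 calls. In WT livers edgeR called 0 of the 11 on either diet, with 2 at an unadjusted p under 0.05 on each; limma-voom called 0 and DESeq2 called 0 on noCys and 1 on noTrp. Against WT noCys, the KO noCys livers had more Hamp (1.92 ± 0.55, adjusted p = 0.0126), Id2 (1.33 ± 0.39, adjusted p = 0.0159), Atoh8 (0.61 ± 0.21, adjusted p = 0.0354) and Smad9, and less of the ligand Bmp2 (-0.93 ± 0.18, adjusted p = 0.000964), 4 higher and 1 lower of the 11, where 14.8% and 13.4% of all genes were. Smad9 averaged 12.3 CPM in KO noCys and 8.145 CPM in WT noCys, against 15.5 CPM in KO CTR and 12.6 CPM in WT CTR. Bmp2, which in liver comes mainly from endothelial cells, stood at 9.47, 8.96 and 8.87 CPM in KO noCys against 13.96 to 20.1 CPM in WT noCys. Endothelial markers summed to 98.1 to 108.7 CPM in KO noCys and to 109.9 to 163.0 CPM in WT noCys, with each of the 6 detected, and their part in the Bmp2 difference was not tested. Without KO noCys replicate 3 the count of genes higher in KO was 1. In KO noTrp, where Id1 was also above KO CTR, Bmp2 stood at 15.6 to 21.7 CPM against 9.50 to 16.9 CPM in KO CTR. Bmp6, the other BMP ligand on the list, was not called between genotypes on noCys, with means of 2.07 ± 0.78 (KO, SD, n = 3) and 2.44 ± 1.08 CPM (WT, SD, n = 4). The noCys effect differed between the genotypes for Id2 (2.17 ± 0.56, adjusted p = 0.0228). In WT livers Id2 was lower on noCys, at 31.0 to 37.3 CPM, than on CTR, at 47.6 to 96.6 CPM, without overlap.

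**Figure D5:**
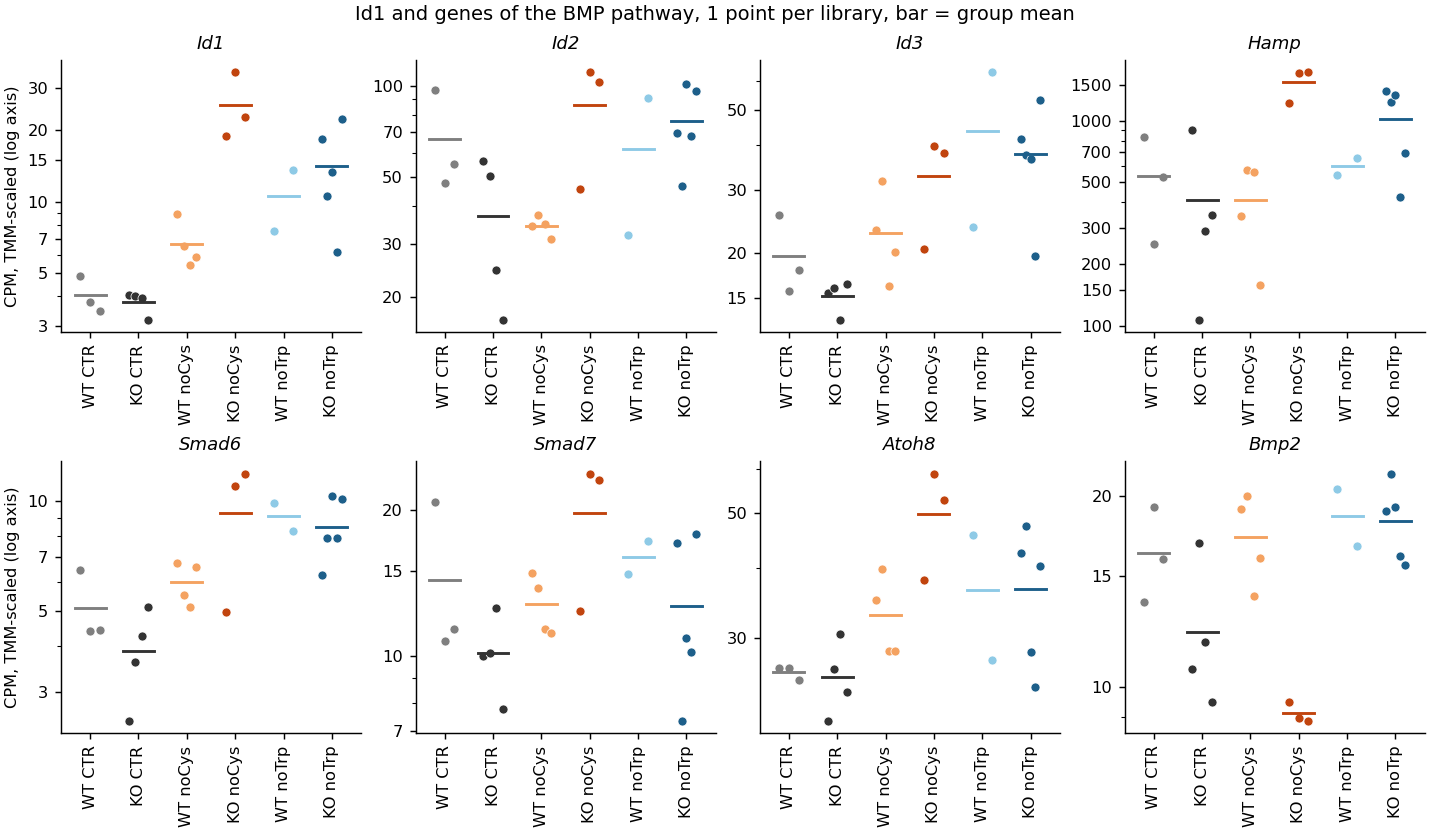
Levels of Id1 and genes of the Id and BMP pathway in every liver, as TMM-scaled CPM with a bar at the group mean. The KO noCys livers are high for Id1 and Hamp and low for Bmp2, at 8.87 to 9.47 CPM, and the first KO noCys liver sits below the other two for Id2, Id3, Smad6 and Smad7.

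The components that carry signals to the early genes gave no calls in WT. Of 18 genes of the ERK cascade and its nuclear targets, 0 were called on either diet in WT, with 3 at an unadjusted p under 0.05 on noCys and 1 on noTrp; DESeq2 and limma-voom also called 0. In KO noCys against KO CTR 1 of the 18 was called higher and 2 lower, against 10.6% and 9.59% of all genes. Braf rose (0.36 ± 0.12, adjusted p = 0.0425) while the growth factor receptor Met (-0.47 ± 0.13, adjusted p = 0.0171) and the kinase Mapk3 (-0.32 ± 0.10, adjusted p = 0.0252) fell. Against WT noCys, 6 of the 18 were lower in KO noCys (13.4% of all genes were), among them Met (-0.49 ± 0.13), Mapk3 (-0.39 ± 0.10) and Mrtfb (-0.44 ± 0.15). RNA levels say nothing of the phosphorylation through which this cascade works.

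Genes of fasting and glucocorticoid action, which share hormonal inputs with early genes such as Dusp1, gave 2 calls higher of 15 on each diet in WT, where 0.39% of all genes were called higher on noCys and 1.7% on noTrp. DESeq2 called 5 on each diet, and limma-voom 7 on noCys and 0 on noTrp. Fkbp5, a glucocorticoid receptor target, rose by 1.46 ± 0.30 on noCys (adjusted p = 0.0305) and by 1.56 ± 0.34 on noTrp (adjusted p = 0.0186), from 77.6, 126.4 and 137.3 CPM to 264.2 to 363.4 CPM and to 389.4 and 281.6 CPM. The metallothionein Mt1 rose on noCys (2.49 ± 0.57, adjusted p = 0.0497), and Igfbp1 on noTrp (3.87 ± 0.86, adjusted p = 0.0189), where its livers stood at 1946 and 206.1 CPM. On noCys 0 of the 15 were called when any 1 of the 7 livers was left out, and on noTrp 0 to 7 were. In KO noCys against KO CTR 1 of the 15, Cdkn1a, rose (2.73 ± 0.90, adjusted p = 0.0369), where 10.6% of all genes were called higher. Against WT noCys, Tsc22d3 (-1.09 ± 0.32), Pck1 (-0.64 ± 0.15) and Nr3c1 (-0.45 ± 0.11) were lower in KO noCys, 3 of the 15 against 13.4% of all genes.

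Of 12 clock genes tested, 0 were called on noCys in either genotype or between genotypes on the control diet, 1 (Clock) was lower in WT noTrp than in WT CTR, where 215 of the 14370 genes were, and 3 were lower in KO than in WT livers on noCys, where 13.4% of all genes were. Of 10 heat shock genes, 6 rose in KO noCys against KO CTR, where 10.6% of all genes were called higher, among them Hspa8 (1.38 ± 0.17), and 0 were called in WT on either diet. Of 9 acute phase genes, Orm1, Orm2 and Itih4 rose in WT noCys, where the summed level was 7118 to 26550 CPM against 4586 to 5286 CPM in WT CTR, and 7 were lower in KO noCys than in their WT counterparts, against 0.39% of all genes higher and 13.4% lower in those comparisons. Against KO CTR, 4 of the 9 (Saa1, Saa2, Orm1 and Orm2) were also called lower in KO noCys, where 9.59% of all genes were. The acute phase sum in WT noTrp was 6071 to 6119 CPM. The part of these programmes in the early gene levels was not tested.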

How the data were processed

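RNA was measured in 21 livers. Per the labels and the study's methods, the authors prepared total RNA in TRIzol and sequenced paired-end NEBNext Ultra libraries of its poly(A) fraction; their processing notes name HISAT2 2.1.0, HTSeq 0.11.0 and GRCm38. The deposited values are raw read counts per Ensembl gene, not normalised; the annotation release and strand setting are not given in the sources used here. Of the table's columns, 1 matched no sample label and was not used.

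Symbols came from GENCODE M21 (45229 of 46078 rows matched). Genes were kept by edgeR's filterByExpr (minimum count 10, minimum total 15), leaving 14370. Counts were scaled by TMM and fitted by edgeR 4.0.16 (R 4.3.3) with the quasi-likelihood test, all 21 libraries in 1 layout of 6 groups; p-values were two-sided and Benjamini-Hochberg adjusted over all genes kept, with calls under 0.05. Standard errors were taken from the F statistic. Library totals of 8889951 to 27230852 counts limit precision mainly for Fos. The script was tested on simulated data.

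Alternatives were DESeq2 1.42.0, limma 3.58.1 (voom with quality weights), DESeq2-style size factors, library totals alone, no filter, only the compared groups, a replicate block and each library left out in turn. Those for the Id and BMP and the fasting lists were added after seeing the data.

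The 10 genes and all lists were chosen with earlier results of these data known. The genes named are the 10; from the companion, Id and BMP, ERK and fasting lists, up to 3 with the largest rise and 3 with the largest fall per comparison among calls averaging over 2 log2 CPM; the 6 non-members closest to the set; Cth; and genes carrying a marker list. Others named were chosen after their values were seen. Promoters came from RefSeq (GRCm38.p6) and untranslated regions from GENCODE M21; the promoters of Egr1, Ier2 and Id1 were not analysed here.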

Additional observations from a re-analysis of the deposited data

Results flagged for a closer look

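Within groups of 4 or 5 livers, 30 gene-by-group sets were examined for a liver far from its group, where chance gives about 5%. The 1 found was Id1 in the fourth KO CTR liver, at 3.20 CPM against 3.94 to 4.07 CPM in the other 3.

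The noCys effect differed between genotypes (KO minus WT, log2 scale, edgeR interaction contrast) for Dusp1 (-3.03), Zfp36 (-1.05), Ier2 (-0.88) and Id1 (2.02) within the set, values that describe genes chosen with these results known. Outside the set the genes for which it differed included Pim3 (-1.75, adjusted p = 0.00856), Nfkbiz (-1.32, adjusted p = 0.0456), Csrnp1 (-1.06, adjusted p = 0.0464), the gluconeogenic enzyme gene Pck1 (-0.87, adjusted p = 0.0188), Id2 (2.17, adjusted p = 0.0228) and Myc (3.13, adjusted p = 0.044). Of the 49 further early genes 5 were called lower and 1 higher, where 3.88% of all genes were called lower and 3.56% higher. The WT CTR livers held 53.8, 3.79 and 3.72 CPM of Myc, the first far from the others. Dusp1 and Pim3 were both higher in every WT noCys liver than in every WT CTR liver.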

How the results depend on the processing

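No result changed direction past its threshold. The median log2 fold change of the set moved by less than the spread between livers except as follows: KO noTrp against KO CTR was -0.31 with limma-voom, and every comparison with WT noTrp moved without its first liver, and KO against WT also without its second. Leaving out 1 library at a time, the medians ran from 0.83 to 1.02 (WT noCys), 1.38 to 2.04 (WT noTrp), -0.30 to -0.06 (KO noCys), -0.16 to 0.16 (KO noTrp), 0.45 to 0.59 (KO against WT on CTR), -0.62 to -0.43 (on noCys), -1.61 to -0.69 (on noTrp), -0.23 to -0.05 (KO noCys against KO noTrp), -1.16 to -0.91 (difference of the noCys effect) and -2.20 to -1.27 (of the noTrp effect).

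Counts of the 49 further early genes moved more. Higher in WT noCys (3): 5 with limma-voom, 6 with only the compared groups, 0 with the replicate block and 0 to 0 leaving out 1 library; lower (0): 1 without the filter. Higher in WT noTrp (8): 2 with limma-voom, 0 with only the compared groups, 2 to 18 leaving out 1. Higher in KO noCys (3): 5 with limma-voom, 0 with the replicate block, 0 to 4 leaving out 1; lower (2): 1 with library totals, 8 with limma-voom, 5 with only the compared groups, 0 to 3. Higher in KO than WT on noCys (0): 3 with library totals, 3 with limma-voom, 3 without the filter, 2 with only the compared groups, 0 to 2; lower (14): 7 with library totals, 6 to 14. Lower in KO than WT on noTrp (2): 8 with DESeq2, 0 with limma-voom, 10 without the filter, 0 with only the compared groups, 0 to 16. The cause was not tested.

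Over all genes, WT noCys gave 95 calls, against 305 with DESeq2, 533 with limma-voom, 269 without the filter, 396 with only the compared groups, 14 with the replicate block and 1 to 53 leaving out 1 library; WT noTrp gave 459, against 753, 32 with limma-voom, 3 with only the compared groups, 191 with the block and 99 to 728. Calls of the 10 genes over the alternatives other than leaving out libraries ran from 0 to 5 higher in WT noCys (2), 1 to 8 higher in WT noTrp (6), 1 to 5 lower in KO against WT on noCys (4), 0 to 5 lower on noTrp (1) and 0 to 2 higher in KO noCys against KO noTrp (1). Over the DESeq2, limma-voom, filter, group and block alternatives, calls among all genes ran from 136 to 610 in KO noTrp (269), 6 to 154 in KO against WT on CTR (46), 4 to 117 on noTrp (28), 2373 to 4195 in KO noCys (2906), 3443 to 5363 in KO against WT on noCys (4055), 1302 to 3204 in KO noCys against KO noTrp (2000), 817 to 2179 for the difference of the noCys effect (1069) and 0 to 14, with DESeq2, for that of the noTrp effect (0). Leaving out 1 library gave, in the same order, 105 to 447, 9 to 53, 14 to 230, 1379 to 2979, 2358 to 3895, 570 to 2124, 430 to 1399 and 0 to 67; the lowest of the 4 comparisons with KO noCys came without its replicate 3, and 230 and 67 came without WT noTrp replicate 2. The replicate numbers were treated as labels in the main fit: of 41 same-numbered pairs of libraries, 9 correlated above 0.1 (r from -0.355 to 0.353). The highest r was between replicate 1 of WT noTrp and of KO noTrp. Whether the numbers mark shared handling was not tested. Scaling by library totals moved the median of all genes to 0.20 from -0.015 (KO against WT on noCys) and to 0.13 from 0.004 (KO noCys against KO CTR) and changed higher and lower calls to 3944 and 983 from 2130 and 1925, and to 2380 and 848 from 1528 and 1378; in WT noTrp to 391 and 110 from 244 and 215.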
